A study of Homo sapiens with 7 samples.

Results

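The antioxidant genes that the transcription factor NRF2 is known to control were examined together with TXNRD1, the cytosolic thioredoxin reductase, in RNA-seq libraries of esophageal squamous cell carcinoma (ESCC) cells. A total of 37 genes, TXNRD1 included, were chosen by name from background knowledge of the pathway, with earlier results of these data known. They were taken out of 56234 genes with an assigned transcript, and all 37 had at least 10 estimated counts in at least 1 pair of libraries. The question was whether TXNRD1 was lower alone or together with the antioxidant genes when TP63, SOX2 or CCAT1 was silenced. TP63 and SOX2 are transcription factors of squamous epithelium, and CCAT1 is a long non-coding RNA. TE5 and KYSE140, established ESCC cell lines, carried short hairpin RNAs (shRNAs): TE5 a non-targeting scramble shRNA, shTP63, shSOX2 or shCCAT1, and KYSE140 scramble, shTP63 or shSOX2. Each of the 7 groups was 1 library of total RNA, and the study cloned its shRNAs into a lentiviral vector. The labels give neither the sequence of the shRNA in a library nor which of the study's TP63 shRNAs was used. They carry the same name for the TP63 shRNA in both lines, and likewise for the SOX2 shRNA. Each target, CCAT1 included, thus rests on 1 named shRNA, and agreement between the lines is no check on the shRNA itself. Whether a difference shared by the lines came from loss of the target or from another effect of that shRNA was not tested. With 1 library per group, a pair of libraries has no replicate check. A test was possible only where the lines served as replicates of each other.

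NRF2, encoded by NFE2L2, is held in the cytoplasm and marked for destruction by KEAP1. Oxidants and electrophiles modify KEAP1, NRF2 then accumulates in the nucleus, pairs with small MAF proteins and binds antioxidant response elements near genes for thioredoxin and glutathione recycling, NADPH supply, aldo-keto reductases, iron storage and export pumps. Changes in NFE2L2 or KEAP1 that activate NRF2 are well known in squamous carcinomas, including those of the esophagus. TXNRD1 is a selenoprotein that spends NADPH to keep thioredoxin reduced.

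The libraries held 68532611 to 98036494 estimated counts. TP63 was lower by 1.95 (TE5) and 1.94 (KYSE140) on the log2 scale in the shTP63 libraries, SOX2 had a log2 fold change of -1.37 in TE5 and -0.38 in KYSE140 in the shSOX2 libraries, and CCAT1 one of -1.70 in the TE5 shCCAT1 library, so the SOX2 knockdown measured in KYSE140 was small. SOX2 was also at -0.59 in TE5 shTP63, and at 0.04 in KYSE140 shTP63. TP63 was at 0.21 and 0.34 in TE5 and KYSE140 shSOX2. The TE5 shTP63 library thus had less RNA of both factors. CCAT1 was read from the single transcript ENST00000500112, which the annotation used here lists under CASC19, so its values depend on that match. It was also at -1.40 and -0.98 in TE5 shTP63 and shSOX2, and at -1.28 and -1.22 in those of KYSE140. All 10 squamous markers reached a level of 1 TPM, the transcript abundance scaled by length and depth, in at least 1 library. So did 2 of 6 fibroblast markers, 2 of 5 leukocyte markers and 1 of the 2 endothelial markers with an assigned transcript (PECAM1 had none). KRT14 did so in KYSE140 alone, as it was at 0.202 to 0.546 TPM in the TE5 libraries. Summed leukocyte markers, mostly CD68, were at 69.5 TPM in TE5 scramble and 118 TPM in TE5 shTP63, summed fibroblast markers at 15.4 and 27.1 TPM, and summed endothelial markers at 2.38 and 9.28 TPM. In the same TE5 libraries, summed squamous markers were at 2960 and 2670 TPM, with KRT5 at 621 and 201 TPM and KRT17 at 529 and 1120 TPM. In KYSE140 scramble and shTP63, summed squamous markers were at 20800 and 13800 TPM and leukocyte markers at 11 and 4.16 TPM. The part of these markers in the results was not tested. In each line, the scramble library was read in another lane (KYSE140) or on another flow cell (TE5) than the shRNA libraries, so a difference from scramble and the lane cannot be told apart, whereas shTP63 and shSOX2 libraries of a line shared a lane.

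The core of the antioxidant response element, TGACNNNGC, was searched on both strands from 250 bases before to 50 after the start of the most abundant annotated transcript of each gene (GRCh37). It was in the windows of 9 of 37 members, which is 24.3%, and in 13.4% of the windows of 27313 genes. Where most counts of a gene lay in transcripts outside the annotation, this start could fall within the gene. Of the members without a core, ABCC2 (1.03% of counts annotated), TRIM16L (9.13%), GCLC (11.7%), AKR1C2 (22.8%), TXNRD1 (25%) and AKR1C1 (46.9%) had most counts there. The lack of a core in these windows does not describe their outer starts. RefSeq gene starts (GRCh38.p14) held a core in 7 of the 25 members with an entry and in 13.6% of 27305 windows. Cores in GSR, CBR1 and ALDH3A1, and a second core of ME1 that begins 11 bases after its start, are not shown. The sites of 6 members of the thioredoxin, glutathione, NADPH and other target groups are shown with 10 bases on either side. The core is in capitals, and each site is printed in the direction of its core.
PRDX1, chr1:45987679-45987707, plus strand, 141 bases before the start: cccgccggaaTGACTCGGCgctttccctc
GCLM, chr1:94375002-94375030, plus strand, 34 bases before the start: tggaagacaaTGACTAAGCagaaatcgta
GPX2, chr14:65409567-65409595, plus strand, 122 bases before the start: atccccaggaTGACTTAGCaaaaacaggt
PGD, chr1:10458910-10458938, minus strand, 201 bases before the start: agcacctagaTGACATTGCcccggcgagg
ME1, chr6:84140889-84140917, minus strand, 137 bases before the start: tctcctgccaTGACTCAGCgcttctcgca
PIR, chrX:15511412-15511440, plus strand, 26 bases after the start: agcctcaccgTGACTCAGCgcttcgcggc

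The cores of ME1 and PIR shown here overlap the AP-1 word TGANTCA, so these letters fit both motifs. TXNRD1 (chr12:104609557-104744085, GRCh37, plus strand) had no core in the window of its most abundant annotated start over all libraries, at position 104680460, nor at 104680659 and 104681146, which held more counts in TE5 scramble. A core, TGACAAAGC on the minus strand, lay in the windows of 3 further annotated starts, at 104680703, 104680768 and 104680835, and 2 cores lay at the outermost start, 104609557. The window of the start at 104680768 is shown with its core in capitals, as it holds the core that 3 TXNRD1 starts share, although this start carried no more than 2.28% of the counts.
TXNRD1, chr12:104680518-104680817, plus strand: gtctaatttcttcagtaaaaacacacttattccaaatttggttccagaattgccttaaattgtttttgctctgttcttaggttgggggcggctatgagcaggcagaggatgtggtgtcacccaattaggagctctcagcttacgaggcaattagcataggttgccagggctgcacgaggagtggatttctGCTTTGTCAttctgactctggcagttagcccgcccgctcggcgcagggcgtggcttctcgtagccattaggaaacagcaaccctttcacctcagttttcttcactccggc

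TXNRD1 was lower than in scramble in all 5 shRNA libraries, and most of all in TE5 upon TP63 silencing. The study had named TXNRD1, with CCAT1, for its reduced RNA when TP63 or SOX2 was knocked down in its ESCC lines. Its lower values and low ranks in the shTP63 and shSOX2 libraries were thus known beforehand and are no independent result. The TXNRD1 level in TE5 was 288 TPM with scramble, 85.7 TPM with shTP63, 177 TPM with shSOX2 and 185 TPM with shCCAT1. In KYSE140 it was 77 TPM with scramble, 37.3 TPM with shTP63 and 36.7 TPM with shSOX2, so that the scramble library was the highest of each line. Fold changes were taken between libraries as log2 of normalized counts plus 1, for each gene that reached 10 counts in either library, and a gene was counted as lower or higher past a log2 fold change of -1 or 1. TXNRD1 was at -1.89 in TE5 shTP63, with a 95% exact (Clopper-Pearson) counting interval of -1.92 to -1.86, which covers counting error only. It was at -0.90 in KYSE140 shTP63, and at -0.73 and -0.85 in TE5 and KYSE140 shSOX2. In TE5 shCCAT1 it was at -0.76. Of all genes compared in the same libraries, 1.11% were as low or lower in TE5 shTP63, 5.04% in KYSE140 shTP63, 8.22% in TE5 shSOX2, 7.91% in KYSE140 shSOX2 and 8.39% in TE5 shCCAT1. In bulk RNA, fewer cells that express a gene and less of its RNA per cell cannot be told apart.

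**Figure D1:**
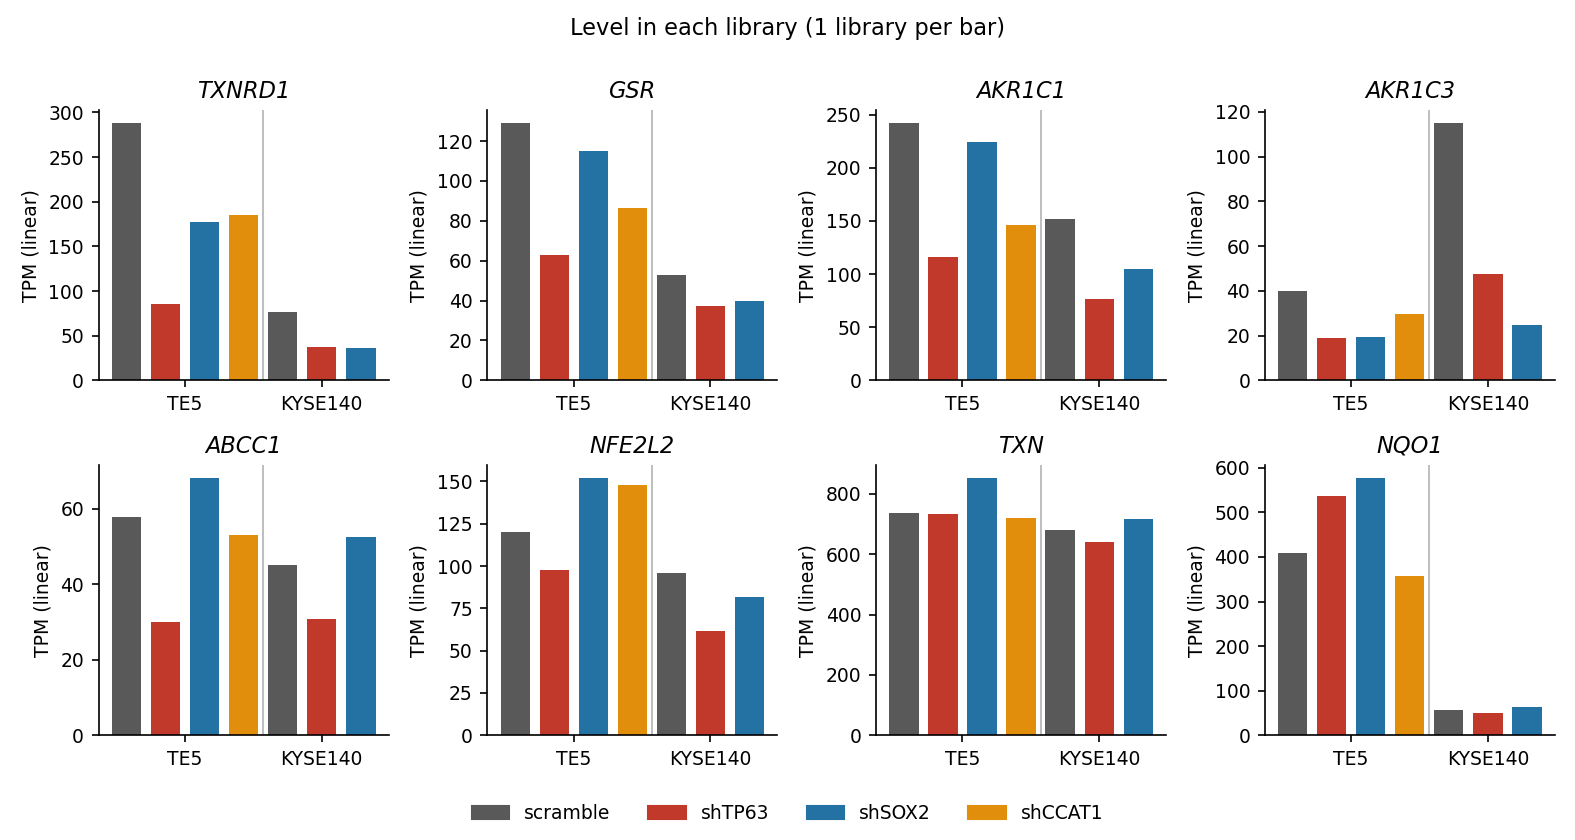
Level of 8 genes in each of the 7 libraries, in TPM on a linear axis that starts at 0, with 1 bar per library and no error bars because each group is 1 library. TXNRD1 drops from 288 to 85.7 TPM between TE5 scramble and TE5 shTP63, while TXN lies at 735 and 732 TPM in the same libraries and NQO1 at 408 and 537 TPM.

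TXNRD1 was estimated from 28 transcripts, whose counts are not independent because they share sequence. In TE5 scramble 8 of them held at least 1000 normalized counts; 8 of 8 were below 0 upon TP63 silencing, at -2.91 to -0.91, and 7 were past -1. ENST00000524698 and ENST00000542918 had equal values in all libraries, and counted once they leave 7 transcripts, 6 of them past -1. Of the same 8, all were below 0 in TE5 shSOX2 and in TE5 shCCAT1, with 1 and 2 past -1, respectively. In KYSE140, 3 transcripts reached 1000 normalized counts, and 3 of 3 were below 0 with each shRNA. The most abundant transcript, ENST00000397736, held 18726 normalized counts in TE5 scramble and 4861 in TE5 shTP63. It is one of the older transcript entries that carry 75% of the TXNRD1 counts and are not in the annotation used here, so their start sites were not analysed. Transcripts with an annotated start made up 20.4 to 38.7% of the counts, and the outermost start never more than 0.842%. TXNRD1 shares few letters with other genes, as 0.774% of its 31-base words also occur in transcripts of another gene.

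The genes next to TXNRD1 were compared as well. Of 23 genes within 500 kb, 12 had at least 100 counts in a library. In TE5 shTP63 the lowest of the 12 was NFYB, a subunit of the CCAAT-binding factor, at -0.50, and in KYSE140 shTP63 it was the pseudogene TTC41P at -1.32, with at most 135 counts in any library. HSP90B1, an endoplasmic reticulum chaperone, and TDG, a thymine DNA glycosylase, were at 0.01 and -0.10 in TE5 shTP63 and at -0.21 and 0.02 in KYSE140 shTP63. The other 8 were NT5DC3, ENSG00000257327, UQCC6, GLT8D2, HCFC2, ENSG00000257732, EID3 and CHST11, which ranged in TE5 shTP63 from -0.42 (ENSG00000257732) to 0.65 (HCFC2). In KYSE140 shTP63 those compared ranged from -0.65 (GLT8D2) to 2.06 (ENSG00000257732). ENSG00000257732, a long non-coding RNA within the TXNRD1 gene body, was also at 1.69 in KYSE140 shSOX2, with at most 152 counts in any library.

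In TE5 with shTP63, TXNRD1 was not alone. Of the 37 genes, 8 were past -1, against 5.44% of 24481 genes in the same pair of libraries. These were AKR1B10 (-2.31), TXNRD1 (-1.89), ABCC1 (-1.25), AKR1C3 (-1.23), AKR1C2 (-1.21), ALDH3A1 (-1.17), AKR1C1 (-1.16) and GSR (-1.15). Past 1 were 2 genes, the export pumps ABCC3 (1.14) and ABCC2 (1.00), against 14.7% of all genes. The median of the 37 was -0.51 and 27 were below 0, against a median of 0.06 and 46% below 0 over all genes. Genes with at least 1000 normalized counts in TE5 scramble, a comparison chosen after seeing the data because 36 of the members reach that level, had a median of -0.16 with 65.6% below 0 and 4.28% past -1. Past 1 were 1.27% of these genes. Library totals in place of TMM factors, which moved the median of all genes from 0.063 to 0.204, left 27 of 37 members below 0 and 8 past -1, beside 51.9% below 0 among the genes with at least 1000 normalized counts.

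**Figure D2:**
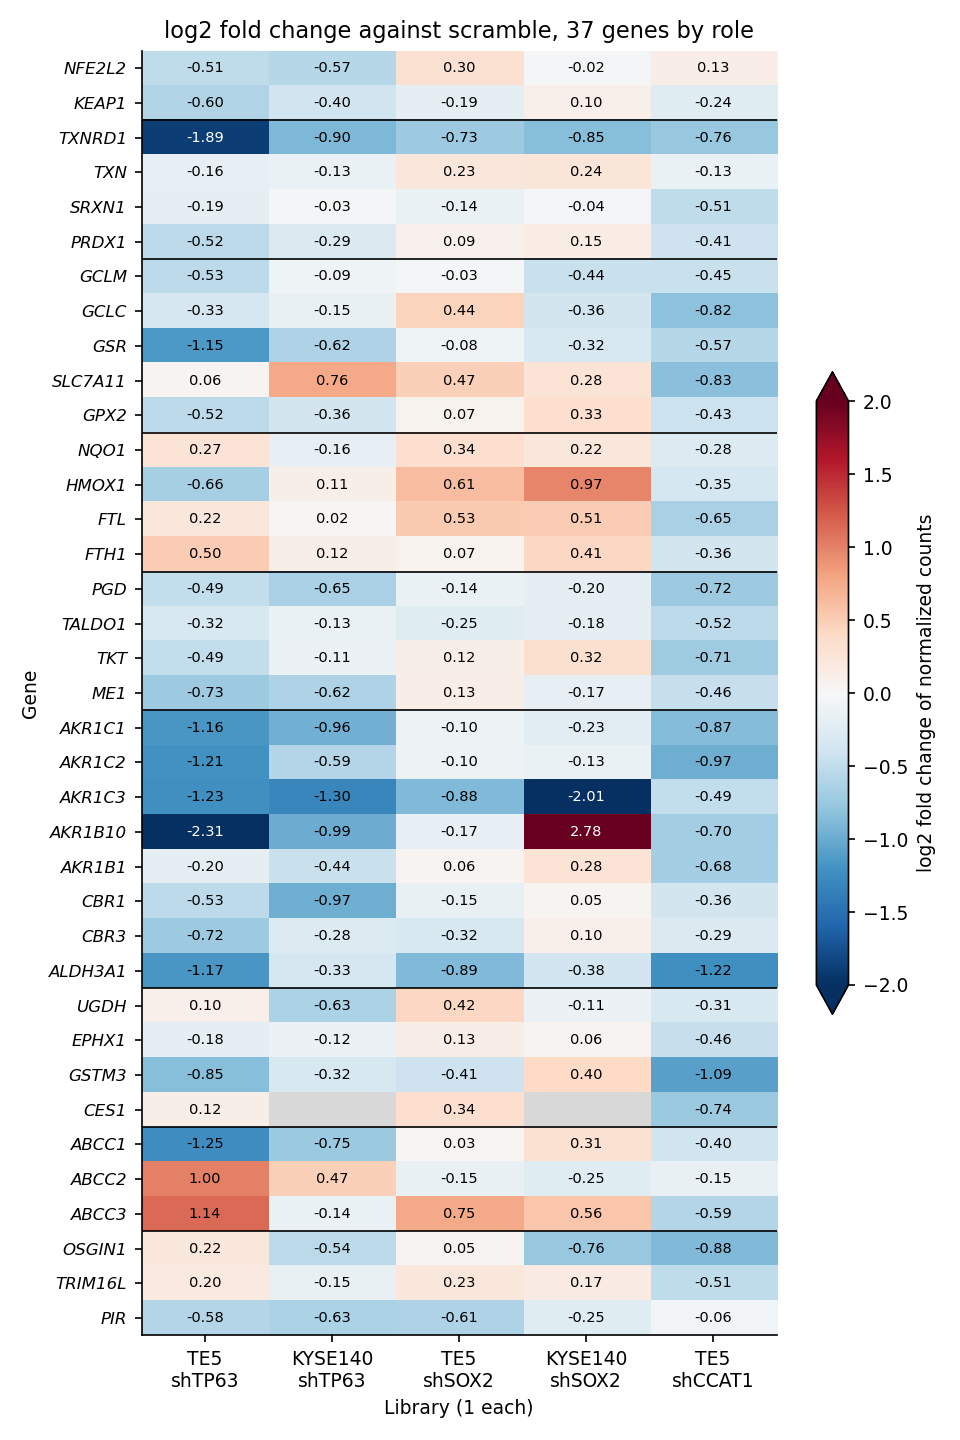
log2 fold change of normalized counts against scramble for the 37 genes, ordered by role, in the 5 shRNA libraries; blue is lower than scramble, red is higher, and grey marks CES1 in KYSE140, which had 0 counts. The column of TE5 shTP63 ranges from -2.31 (AKR1B10) to 1.14 (ABCC3), and the column of TE5 shCCAT1 is below 0 for 36 of 37 genes.

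The regulators themselves were slightly lower upon TP63 silencing in both lines. NFE2L2 was at 120 TPM in TE5 scramble, 97.8 TPM in shTP63, 152 TPM in shSOX2 and 148 TPM in shCCAT1, and at 95.8, 61.6 and 82 TPM in KYSE140 scramble, shTP63 and shSOX2. Its log2 fold change was -0.51 in TE5 and -0.57 in KYSE140 with shTP63, and 0.30 and -0.02 with shSOX2. KEAP1, the adaptor that delivers NRF2 to its ubiquitin ligase, was at -0.60 and -0.40 with shTP63. The shTP63 library was thus the lowest of each line for both genes. The NFE2L2 starts at 178129455 and 178128869 (chr2, GRCh37, minus strand) carried 45.9 to 64% and 26.5 to 46.1% of its counts and stood at -0.56 and -0.48 in TE5 shTP63 and at -0.32 and -0.59 in KYSE140 shTP63. Of the NFE2L2 words, 39.5% also occur in other genes, most of them in HNRNPA3, so its counts are less certain than those of TXNRD1.

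In the thioredoxin group TXNRD1 was the lowest gene in both lines. TXN, thioredoxin itself and the substrate of TXNRD1, was at -0.16 in TE5 shTP63 and -0.13 in KYSE140 shTP63. PRDX1, a peroxiredoxin that thioredoxin reduces, was at -0.52 and -0.29. SRXN1, which repairs overoxidized peroxiredoxins, was at -0.19 and -0.03, but 90.6% of its words are shared with a readthrough gene, so its value is uncertain. All 4 genes of the group were below 0 in both lines, and only TXNRD1 came near the fold in KYSE140.

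In the glutathione group GSR, the reductase that recycles oxidized glutathione, was the lowest. It was at 129 TPM in TE5 scramble, 62.8 TPM in shTP63, 115 TPM in shSOX2 and 86.4 TPM in shCCAT1, and at 52.9, 37.1 and 40 TPM in KYSE140 scramble, shTP63 and shSOX2. Its log2 fold change upon TP63 silencing was -1.15 in TE5 and -0.62 in KYSE140. GCLC and GCLM, the catalytic and modifier subunits of the enzyme that limits glutathione synthesis, were at -0.33 and -0.53 in TE5 shTP63 and at -0.15 and -0.09 in KYSE140 shTP63. GPX2, a glutathione peroxidase of epithelia, was at -0.52 and -0.36. SLC7A11, the cystine importer, was at 0.06 and 0.76 and was thus above 0 in both lines. GCLC counts lay for 88.3% in transcripts placed by their order among those of the gene, and with annotated protein-coding transcripts alone its value in TE5 shTP63 was 0.07.

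The NADPH-supplying enzymes were below 0 in both lines without passing the fold. PGD, of the oxidative pentose phosphate pathway, was at -0.49 in TE5 shTP63 and -0.65 in KYSE140 shTP63. ME1, the cytosolic malic enzyme, was at -0.73 and -0.62. TALDO1 and TKT, the enzymes of the non-oxidative branch, were at -0.32 and -0.49 in TE5 and at -0.13 and -0.11 in KYSE140.

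The quinone, haem and iron genes did not follow. NQO1, a quinone reductase often read as a marker of NRF2 activity, was at 408 TPM in TE5 scramble, 537 TPM in shTP63, 577 TPM in shSOX2 and 357 TPM in shCCAT1, and at 57.5, 49.6 and 64.1 TPM in KYSE140 scramble, shTP63 and shSOX2. It was at 0.27 in TE5 shTP63 and -0.16 in KYSE140 shTP63. FTL and FTH1, the ferritin chains that store iron, were at 0.22 and 0.50 in TE5 and at 0.02 and 0.12 in KYSE140, with 33.5% and 63.6% of their words shared with other genes. HMOX1, haem oxygenase, was at -0.66 and 0.11, so 3 of the 4 genes were above 0 in each line.

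The aldo-keto, carbonyl and aldehyde enzymes held the lowest values, with 8 of 8 below 0 in both lines, a median of -1.17 in TE5 shTP63 and one of -0.77 in KYSE140 shTP63. AKR1C1, which reduces steroids and reactive carbonyls, was at 242 TPM in TE5 scramble, 116 TPM in shTP63, 224 TPM in shSOX2 and 146 TPM in shCCAT1, and at 152, 76.1 and 105 TPM in KYSE140 scramble, shTP63 and shSOX2. AKR1C3, a prostaglandin and androgen reductase, was at 39.8 TPM in TE5 scramble, 18.8 TPM in shTP63, 19.5 TPM in shSOX2 and 29.8 TPM in shCCAT1, and at 115, 47.6 and 24.9 TPM in KYSE140. Every silenced library was below its scramble library for both genes. AKR1C2, a hydroxysteroid dehydrogenase, was at -1.21 in TE5 shTP63 and -0.59 in KYSE140 shTP63. AKR1C1 and AKR1C2 share sequence: 44.6% of the AKR1C2 words also occur in AKR1C1, so reads can be split between them. Summed to 1 feature, AKR1C1, AKR1C2 and AKR1C3 were at -1.20 in TE5 shTP63, -0.77 in KYSE140 shTP63, -0.13 in TE5 shSOX2, -0.35 in KYSE140 shSOX2 and -0.91 in TE5 shCCAT1.

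AKR1B10, which reduces retinal and lipid aldehydes, was the lowest member in TE5 shTP63. It was at 207 TPM in TE5 scramble, 49.5 TPM in shTP63, 183 TPM in shSOX2 and 137 TPM in shCCAT1. KYSE140 held almost none, with 0.386, 0.205 and 1.82 TPM in scramble, shTP63 and shSOX2, and its -0.99 in KYSE140 shTP63 had a counting interval of -2.20 to 0.06. ALDH3A1, which oxidizes aldehydes in squamous epithelium, was at 254 TPM in TE5 scramble, 126 TPM in shTP63, 137 TPM in shSOX2 and 120 TPM in shCCAT1, so all 3 silenced libraries were similar. CBR1, a carbonyl reductase, was at -0.53 in TE5 shTP63 and -0.97 in KYSE140 shTP63, and CBR3, its paralog, at -0.72 and -0.28. AKR1B1, the aldose reductase, was at -0.20 and -0.44.

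Conjugation, export and other targets moved in both directions. The export pump ABCC1 was at 57.9 TPM in TE5 scramble, 30 TPM in shTP63, 68.1 TPM in shSOX2 and 53 TPM in shCCAT1, and at 45.1, 30.9 and 52.5 TPM in KYSE140, where shTP63 was again the lowest. ABCC3, a basolateral conjugate pump, was higher in TE5 shTP63 (70.3 against 27.9 TPM) but at -0.14 in KYSE140 shTP63. ABCC2, the apical conjugate pump, was at 1.00 and 0.47, but 99% of its counts came from transcripts outside the annotation that were added from gene sums, and its value in TE5 shTP63 was -0.11 without them. Of the enzymes of conjugation and hydrolysis, GSTM3, a glutathione transferase, was at -0.85 and -0.32, UGDH, which makes UDP-glucuronate, at 0.10 and -0.63, and EPHX1, an epoxide hydrolase, at -0.18 and -0.12. CES1, a carboxylesterase, was at 0.12 in TE5 and had 0 counts in all KYSE140 libraries. PIR, an iron-binding nuclear protein, was at -0.58 and -0.63, OSGIN1, a growth inhibitor induced by oxidative stress, at 0.22 and -0.54, and TRIM16L, which shares 59.7% of its words with other genes, at 0.20 and -0.15.

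In KYSE140 with shTP63 most of the members were below 0 as well, and fewer were past the fold. Of 36 genes compared, 1 was past -1, AKR1C3 (-1.30), against 4.15% of 21923 genes, and none past 1, against 8.66%. The median of the members was -0.33 and 31 of 36 were below 0, against a median of 0.05 and 45.4% below 0 over all genes, and -0.02 and 53.6% over genes with at least 1000 normalized counts in KYSE140 scramble. Of these well counted genes, 1.21% were past -1 and 0.153% past 1. With library totals, 30 of 36 members and 43.4% of those genes were below 0. CBR1 (-0.97), AKR1B10 (-0.99), AKR1C1 (-0.96) and TXNRD1 (-0.90) lay close to the fold, and 4 members were below TXNRD1. The pairs of the lines share no library. Across them, 26 of 36 members were below 0 in both lines, 4 were above 0 in both and 6 were opposite, whereas 30.4% of all genes were below 0 in both. Past -1 in both lines was 1 of 36 members, AKR1C3, against 0.705% of 20428 genes.

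**Figure D3:**
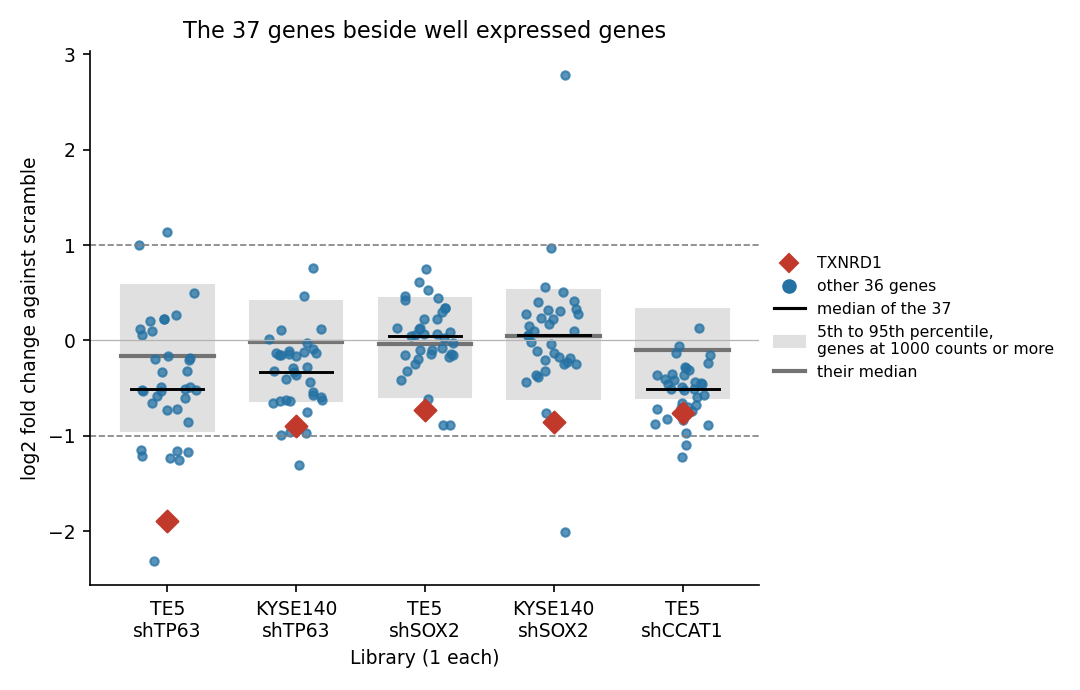
log2 fold change against scramble of TXNRD1 (red diamonds) and the other 36 genes (blue points) in each shRNA library, with the median of the members (black line), beside the 5th to 95th percentile and the median of genes with at least 1000 normalized counts (grey box and line); dashed lines mark -1 and 1. TXNRD1 lies under the grey box in all 5 libraries, and the member median is below the grey median in both shTP63 libraries and in TE5 shCCAT1.

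With the lines as replicates, TP63 silencing called none of the members. The fit was edgeR's quasi-likelihood test on 6 libraries with the line as a block, 2 residual degrees of freedom, and Benjamini-Hochberg adjustment over 26022 features at 0.1; its p-values measure the spread between these libraries. It called 0% of all features for shTP63 against scramble. At an unadjusted p under 0.05, 18 members were lower and 1 higher, against 7.88% of all 26022 features lower and 1436 of them higher. DESeq2 on the same libraries called 15 members lower and 1 higher, against 3.18% of 43250 features lower and 484 of them higher. These 43250 include low-count features that DESeq2 can drop before adjustment, which makes its shares smaller, here and below. The higher member was ABCC2 in both. With transcripts added from gene sums kept apart, no member was higher at that p in edgeR. TXNRD1 was at -1.36 ± 0.27 (SE) with an edgeR adjusted p of 0.165, AKR1C1 at -1.05 ± 0.14 with 0.117, and ABCC1 at -0.99 ± 0.15 with 0.137. TXNRD1, AKR1C1 and ABCC1 were each lower in both lines. Over the other settings the adjusted p of TXNRD1 ranged from 0.000222 to 1.

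Upon SOX2 silencing TXNRD1, which the study had named for its lower RNA there, was lower while the members as a group were not. In TE5 shSOX2, 0 of 37 genes were past -1, against 4.79% of 22800 genes, and 0 past 1, against 6.15%. Of genes with at least 1000 normalized counts in TE5 scramble, 1.05% were past -1 and 0.298% past 1. The median of the 37 was 0.05 and 17 were below 0. The lowest were ALDH3A1 (-0.89), AKR1C3 (-0.88) and TXNRD1 (-0.73). In KYSE140 shSOX2, 1 gene was past -1, AKR1C3 (-2.01), against 6.14% of 20819 genes, and 1 was past 1, AKR1B10 (2.78), against 6.83%. AKR1B10 rested there on 24.7 and 176 normalized counts. Of genes with at least 1000 normalized counts in KYSE140 scramble, 1.52% were past -1 and 0.53% past 1. The median of the members was 0.06, and TXNRD1 was their next lowest gene after AKR1C3. Past -1 in both lines was none of 36 members, against 0.839% of 19318 genes, and 12 were below 0 in both lines, 14 above 0 in both and 10 opposite.

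Quinone, haem and iron genes were above 0 in both shSOX2 libraries, 4 of 4 in each. HMOX1 was at 14.5 TPM in TE5 scramble and 22 TPM in shSOX2, and at 7.65 and 13.7 TPM in KYSE140; FTL was at 1310 and 1870 TPM in TE5 and at 630 and 796 TPM in KYSE140. Both were highest in the shSOX2 library of each line. edgeR called 0 members for shSOX2 against scramble, against 0.0692% of all features. At an unadjusted p under 0.05, 4 members were lower and 2 higher, against 4.95% of 26022 features lower and 967 of them higher. DESeq2 called AKR1C3 lower and FTL and HMOX1 higher, against 1.11% of 43250 features lower and 236 of them higher. In the edgeR fit TXNRD1 was at -0.80 ± 0.27 (SE) with an adjusted p of 0.509, and AKR1C3 at -1.44 ± 0.30 with 0.327, both lower in 2 of 2 lines.

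With shCCAT1 in TE5, nearly all of the members were slightly lower than in scramble. Of 37 genes, 2 were past -1, ALDH3A1 (-1.22) and GSTM3 (-1.09), against 5.83% of 24184 genes, and 0 past 1, against 11.7%. The median was -0.51 and 36 of 37 were below 0, NFE2L2 (0.13) being the exception, against a median of 0.02 and 48.6% below 0 over all genes and -0.10 and 65.6% over genes with at least 1000 normalized counts. Of these well counted genes, 0.534% were past -1 and 0.0513% past 1, both smaller shares than those of all genes. TXNRD1 (-0.76) was within the range of the other members, as 7 of them were lower. AKR1C2 (-0.97), OSGIN1 (-0.88), AKR1C1 (-0.87), SLC7A11 (-0.83) and GCLC (-0.82) lay below it, beside the 2 genes past the fold. FTL (-0.65) and NQO1 (-0.28), which were above 0 in TE5 shTP63 and shSOX2, were below 0 here. With library totals in place of TMM factors, 33 of 37 were below 0 against 39.8% of the genes with at least 1000 normalized counts. CCAT1 was silenced in TE5 alone, so no test was possible, and all 3 TE5 shRNA libraries share 1 scramble library.

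The direct contrast sets shTP63 against shSOX2, whose libraries share a lane within each line. Its pair values use no scramble library, whereas its edgeR fit takes part of its estimate of the spread from the scramble libraries. In TE5, 7 members were past -1 (AKR1B10, ABCC1, HMOX1, TXNRD1, AKR1C2, AKR1C1 and GSR), against 6.09% of 24630 genes, and ABCC2 was past 1, against 14.1%. In KYSE140, 3 of 36 were past -1 (AKR1B10, ABCC1 and CBR1), against 6.6% of 22125 genes. The medians were -0.39 and -0.41, with 32 of 37 and 27 of 36 members below 0, against 46.9% and 49.7% of all genes and 63.1% and 60.5% of genes with at least 1000 normalized counts. Over all genes the medians were 0.05 and 0.00, and over genes with at least 1000 normalized counts in the shSOX2 library they were -0.13 and -0.10. Of these well counted genes, 4.12% in TE5 and 2.94% in KYSE140 were past -1, and 1.63% and 1.3% past 1. TXNRD1 was at -1.16 in TE5 and at -0.05 in KYSE140, where its counting interval of -0.10 to -0.00 ended just under 0.

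edgeR called 2 members lower with shTP63 than with shSOX2, against 1.46% of features lower. ABCC1 was lower by 1.28 (TE5) and 1.06 (KYSE140) on the log2 scale in the pairs of libraries, and its fitted log2 fold change was -1.14 ± 0.15 (SE) with an adjusted p of 0.0542. AKR1C1 stood at -1.07 and -0.73 in the pairs and at -0.87 ± 0.14 in the fit, with an adjusted p of 0.0637 from edgeR. Both were lower in 2 of 2 lines. At an unadjusted p under 0.05, 18 members were lower and 1 higher, against 8.5% of 26022 features lower and 2009 of them higher. DESeq2 called 17 lower and 1 higher, against 4.04% of 43250 features lower and 1019 of them higher. The higher member was ABCC2 in both. With transcripts added from gene sums kept apart, none was higher at that p in edgeR. NFE2L2 was at -0.66 ± 0.14 with an adjusted p of 0.111, GPX2 at -0.61 ± 0.13 with 0.108, and TXNRD1 at -0.56 ± 0.27 with 0.375 (edgeR). Both calls were lost without the TE5 scramble library, without the KYSE140 scramble library and without the block, and that of AKR1C1 also without TE5 shSOX2 (adjusted p = 0.162, edgeR). AKR1C1 has 31.1% of its words in AKR1C2 and 53.1% of its counts in transcripts added from gene sums; with these kept apart its adjusted p was 0.0956.

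**Figure D4:**
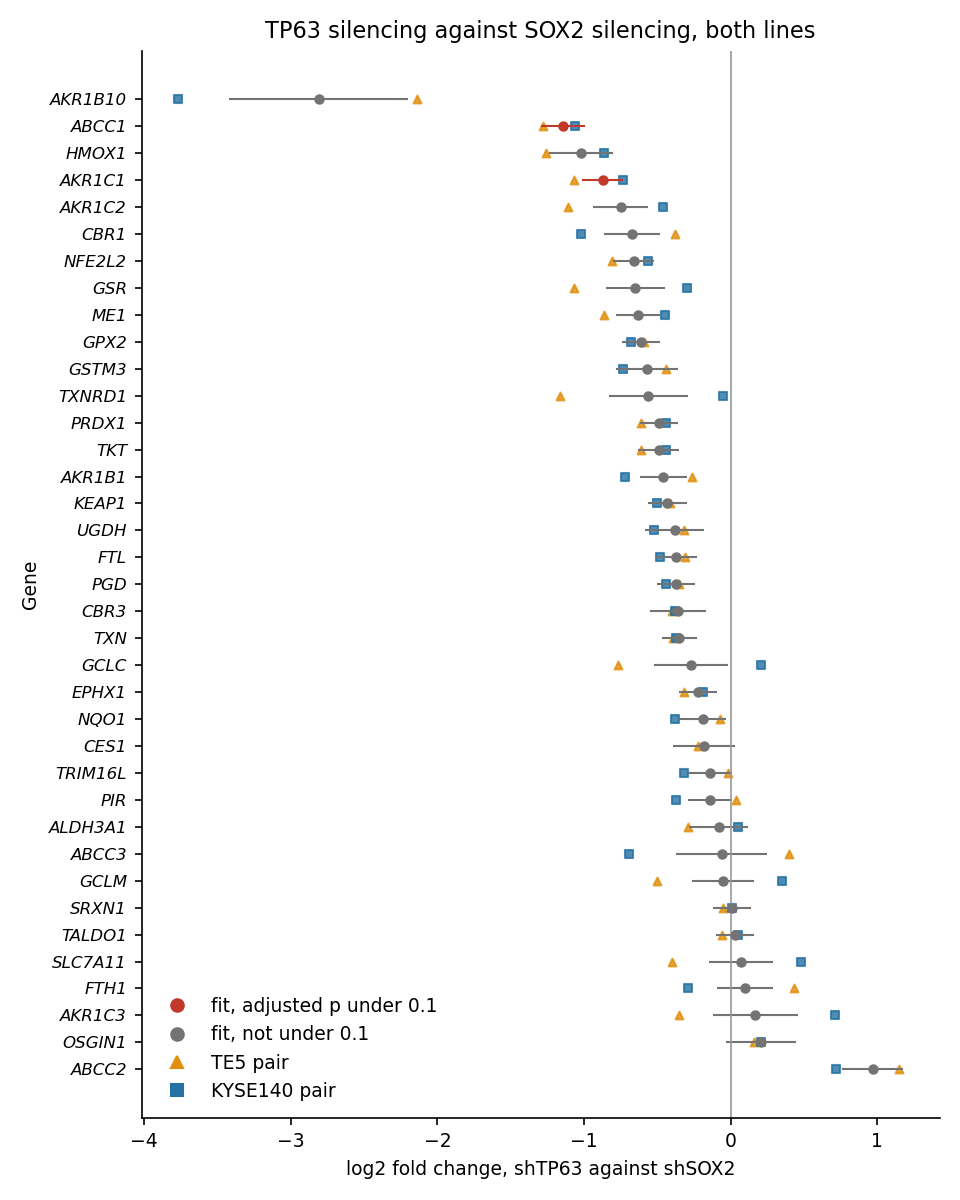
log2 fold change of shTP63 against shSOX2 for the 37 genes: edgeR fit over both lines with its SE (circles and lines; red, adjusted p under 0.1; grey, not under 0.1), and the pairs of libraries in TE5 (orange triangles) and KYSE140 (blue squares). ABCC1 (-1.14) and AKR1C1 (-0.87) are the red points, and TXNRD1 has its TE5 value at -1.16 and its KYSE140 value at -0.05.

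Most members differed between the lines. edgeR called 29 of 37 between TE5 and KYSE140, 21 higher in TE5 and 8 lower, against 64.3% of all features, so the share was not far from that of other genes; 1 line of each kind was compared. TXNRD1 was higher in TE5 by 1.38 ± 0.22 (SE, adjusted p = 0.00251, edgeR), and was at 288 and 77 TPM in the scramble libraries. NQO1 (2.93 ± 0.14), ALDH3A1 (3.92 ± 0.18) and AKR1B10 (7.61 ± 0.57) were among those higher in TE5, as were SLC7A11 (2.61 ± 0.19), EPHX1 (3.30 ± 0.11) and ABCC3 (2.91 ± 0.28). CES1 stood at 10968 normalized counts with scramble in TE5 and had 0 in KYSE140, which against a limit of 3 counts in that library is at least 2684-fold higher; with shTP63 and shSOX2 it was at least 4362-fold and 3806-fold higher. AKR1C3 (-1.32 ± 0.24), GSTM3 (-1.32 ± 0.17), CBR1 (-1.23 ± 0.15) and PGD (-1.14 ± 0.11) were lower in TE5. TXN (-0.07 ± 0.10), ABCC1 (-0.07 ± 0.12) and AKR1C2 (-0.06 ± 0.15) were not called. NFE2L2 and KEAP1 were both higher in TE5, by 0.47 ± 0.12 and 0.35 ± 0.11.

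**Figure D5:**
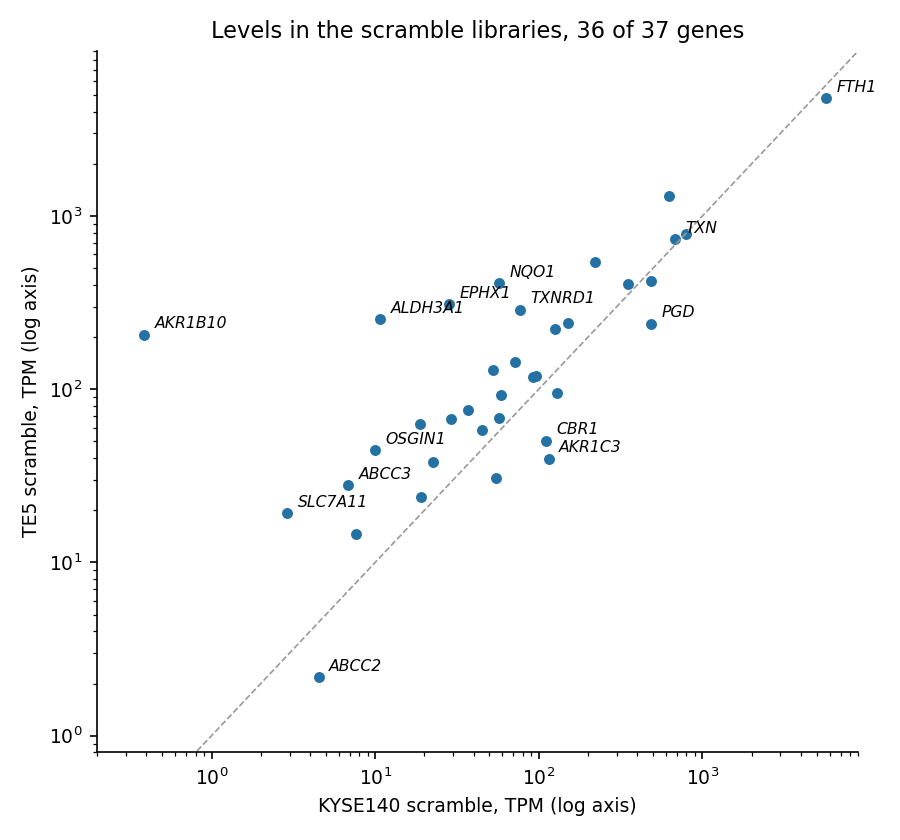
Level in TE5 scramble against KYSE140 scramble, in TPM on log axes, for the 36 genes detected in both; the dashed line marks equal levels. AKR1B10 (207 and 0.386 TPM) and ALDH3A1 (254 and 10.7 TPM) lie far above the line, and AKR1C3 (39.8 and 115 TPM) lies below it.

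Other genes of the pathway, 53 in all, were also listed by name. In TE5 shTP63, 3 of 52 compared were past -1 (GSTM2, IDH2 and SELENOF) and 2 past 1 (TXNIP and SELENOP), against 5.44% and 14.7% of all genes, with a median of -0.21 beside -0.51 for the members. In KYSE140 shTP63 1 of 51 was past -1 (PRDX3) and 2 past 1 (GSS and SELENOP), against 4.15% and 8.66% of all genes, with a median of -0.05 beside -0.33; these genes, IDH1 and SELENOP apart, were named after their values were seen. The 7 listed genes of NRF2 regulation (NFE2L1, MAFF, MAFG, MAFK, BACH1, CUL3 and SQSTM1) were at a median of 0.10 and 0.01 with shTP63. None of them passed the fold in either line. With shSOX2 1 of 52 in TE5 and 1 of 50 in KYSE140 was past -1, against 4.79% and 6.14% of all genes, and 1 (TXNIP) and 2 (GSS and RPIA) were past 1, against 6.15% and 6.83%. The gene past -1 was IDH1, the cytosolic NADPH-producing isocitrate dehydrogenase, in both lines, at -1.14 and -1.27, with 190 TPM in TE5 scramble and 86.9 TPM in TE5 shSOX2, and 89 and 34.7 TPM in KYSE140. SELENOP, a selenium carrier, was past 1 in both lines with shTP63 (1.11 and 2.49), at 0.31 and 1.41 TPM in KYSE140 scramble and shTP63. In TE5 shCCAT1, 40 of 52 (76.9%) were below 0, against 48.6% of all genes and 65.6% of genes with at least 1000 normalized counts, with a median of -0.27. There 2 were past -1 (GSS and GSTM2) and 0 past 1, against 5.83% and 11.7%. GSS and TXNIP are counted here but uncertain, since unassigned transcripts beside them hold more counts than the genes themselves.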

How the data were processed

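RNA-seq of 7 libraries, 1 per group, was used. Per the labels and the study's methods, 100 bp paired-end reads were quantified by the authors with kallisto against hg19 transcripts, and the deposited values are estimated counts and TPM per transcript, not normalized further. Estimated counts were summed per gene by annotation (93.58% of counts), by position between transcripts of 1 gene in file order (3.724%), and, for 350 transcripts (0.3096%), where the gene then summed to the authors' gene value in shortened tables; 2.389% stayed unassigned. Sums of estimated counts were rounded to whole numbers for edgeR 4.0.16 and DESeq2 1.42.0 (R 4.3.3; line as block, adjusted p under 0.1). Pair values used TMM scaling and a pseudocount of 1, with Python 3.11.15 and scipy 1.17.1 for exact intervals. The authors' tables of comparisons were not used for values. The fit was also run on simulated counts with no difference between the lines and a dispersion below that of the real fit (0.0601). That run does not measure the error rate of the fit on these libraries.

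The members and lists were chosen with earlier results of these data known; all 37 members, pathway genes past the fold in both lines with at least 100 counts, and neighbours with at least 100 counts within 500 kb were named. The libraries held 68532611 to 98036494 counts. Alternatives were DESeq2 size factors, library totals, summed TPM, a pseudocount of 10, minimums of 1 and 50 counts, protein-coding transcripts only, summed AKR1C genes, no filter, no block, unassigned transcripts left out and each library left out. The comparison with highly counted genes, the GRCh37 promoter windows and edge transcripts kept apart were chosen after seeing the data. Replicate numbers pair no samples, since each line gave 1 library per shRNA; the line itself is the block.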

Additional observations from a re-analysis of the deposited data

Results flagged for a closer look

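AKR1B10, the retinal and lipid aldehyde reductase, stood on opposite sides of scramble upon SOX2 silencing. Its log2 fold change was -0.17 in TE5 shSOX2, where it held 207 TPM with scramble and 183 TPM with shSOX2, and 2.78 in KYSE140 shSOX2, where it held 0.386 and 1.82 TPM. The KYSE140 value rested on 24.7 and 176 normalized counts and had a 95% exact counting interval of 2.14 to 3.64. With 1 library per group, the difference between the lines was not tested. Of the AKR1B10 words, 31.9% also occur in other genes, most of them in AKR1B15 (18.5%).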

How the results depend on the processing

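Over the alternatives, TXNRD1 stayed below 0 in the edgeR fit of shTP63 (-1.93 to -0.89), of shSOX2 (-1.15 to -0.50) and of the direct contrast (-1.13 to -0.07), with adjusted p from 0.000222, 0.0234 and 0.0123 up to 1. Of the counts of members, 66 stayed within 1.5 times the reported value and 30 moved. The members past the fold in KYSE140 shTP63 (1) were 4 with DESeq2 size factors, 2 with summed TPM and with protein-coding transcripts, 0 with the AKR1C genes summed and 3 with edge transcripts kept apart. The 2 members in TE5 shCCAT1 became 1 with library totals and with summed TPM, the 2 in KYSE140 shSOX2 became 1 with the AKR1C genes summed, and the 0 in TE5 shSOX2 became 1 with protein-coding transcripts. Members called for shTP63 against scramble (0) were 16 by DESeq2, 9 with no filter, 3 with unassigned transcripts left out, and 0 to 11 with 1 library left out (7 without KYSE140 shSOX2, 11 without KYSE140 shTP63, 7 without TE5 shSOX2, 4 without TE5 shTP63). For shSOX2 (0) they were 3 by DESeq2, 1 with no filter and 0 to 3 with 1 library left out (2 without KYSE140 shTP63, 2 without TE5 shSOX2, 3 without TE5 shTP63). For shTP63 against shSOX2 (2) they were 1 with the AKR1C genes summed, 18 by DESeq2, 10 with no filter, 9 with unassigned transcripts left out, 0 with no replicate block, and 0 to 13 with 1 library left out (0 without either scramble library, 13 without KYSE140 shTP63, 4 without TE5 shTP63). The edgeR fit without 1 library assumes that the lone library of a group varies like the others. Of the members, ABCC2 reversed with edge transcripts kept apart: its log2 fold change in TE5 shTP63 was -0.11, and in TE5 against KYSE140 0.60. The cause of these changes was not tested, other than that summing the AKR1C genes leaves fewer genes to count. Depth limited AKR1B10 in KYSE140 (0.205 to 1.82 TPM).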
